A study of Drosophila melanogaster with 2 samples.

Results

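The genes described here encode the vacuolar-type proton ATPase (V-ATPase) of Drosophila melanogaster, and were taken as the protein-coding genes whose symbol starts with Vha. The rule found 33 genes among 13945 protein-coding genes on the 6 main chromosome arms. It leaves out ATP6AP2, an accessory subunit gene annotated under another name. Of the 33 genes, 13 encode subunits of the V1 sector, 18 encode subunits of the V0 sector and 2 encode accessory proteins of the Ac45 type.

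The V-ATPase is a rotary pump. Its cytosolic V1 sector hydrolyses ATP and turns a central stalk, and its membrane-embedded V0 sector carries protons into lysosomes, endosomes and secretory vesicles, or out across the apical membrane of some epithelia. Many fly subunits are encoded by several paralogues, of which generally 1 is used in most tissues while the rest are largely restricted to tissues such as testis, gut or nervous system. From this background knowledge, and not from a measurement here, 15 genes were classed as broadly used and 17 as tissue-restricted. VhaM9.7-a was left unclassified. The bound factor, Bigmax, corresponds to Mlx of mammals and belongs to the basic helix-loop-helix leucine zipper class, whose members bind E-boxes such as CACGTG. In mammals, the related factor TFEB is known to bind an extended E-box, the CLEAR element, at V-ATPase and other lysosomal genes, and Mitf is its fly counterpart.

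The study holds 2 chromatin immunoprecipitation libraries in 1 group, labelled biological replicates 3 and 4. Both came from whole, mixed-sex embryos aged 0 to 24 h of a transgenic line (strain bigmax-GFP) that stably expresses Bigmax with GFP at its C terminus. The promoter that drives the fusion is not given in the labels. The antibody label names Bigmax, whereas the free text calls each library an input control, and the lists were read here as immunoprecipitation peaks. The design has no second condition and no wild-type or mock group to compare, so the results are positions and levels of peaks, described without a test. The deposited lists held 30000 relaxed peaks for each replicate, 30000 for the replicates pooled, and 1949 pooled peaks that the authors kept by irreproducible discovery rate (IDR), a filter on rank agreement between replicates. The latter are termed reproducible. The term names the list, and not every peak in it was strong in both replicates. For example, a listed peak at Vha100-2 had no overlapping peak in replicate 4. The reproducible peaks are the 1949 pooled peaks with the highest signal, down to a signal of 111. Signal is the authors' value in the peak caller's units, so it is compared only within a list. The lists carry no read counts, and depth is unknown. Ranks in a list run from 1 for the strongest peak.

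A reproducible summit lay within 500 bp of a transcript start of 7 of the 33 V-ATPase genes, 21.2%, beside a background of 11.2% of all protein-coding genes (1557 of 13945). All 7 were broadly used genes, so the count was 7 of 15 in that class and 0 of 17 among the tissue-restricted paralogues. By sector it was 5 of 13 V1 genes (38.5%) and 2 of 18 V0 genes (11.1%), the latter near the background share. The V0 genes include 12 restricted paralogues and the V1 genes 4, and within the broadly used genes the counts were 5 of 9 for V1 and 2 of 5 for V0. Counted by subunit, 5 of the 8 V1 subunits and 2 of the 5 V0 subunits had at least 1 gene with a reproducible promoter summit. These classes hold few genes, chosen with earlier results of these data known, and the differences between them were not tested.

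**Figure D1:**
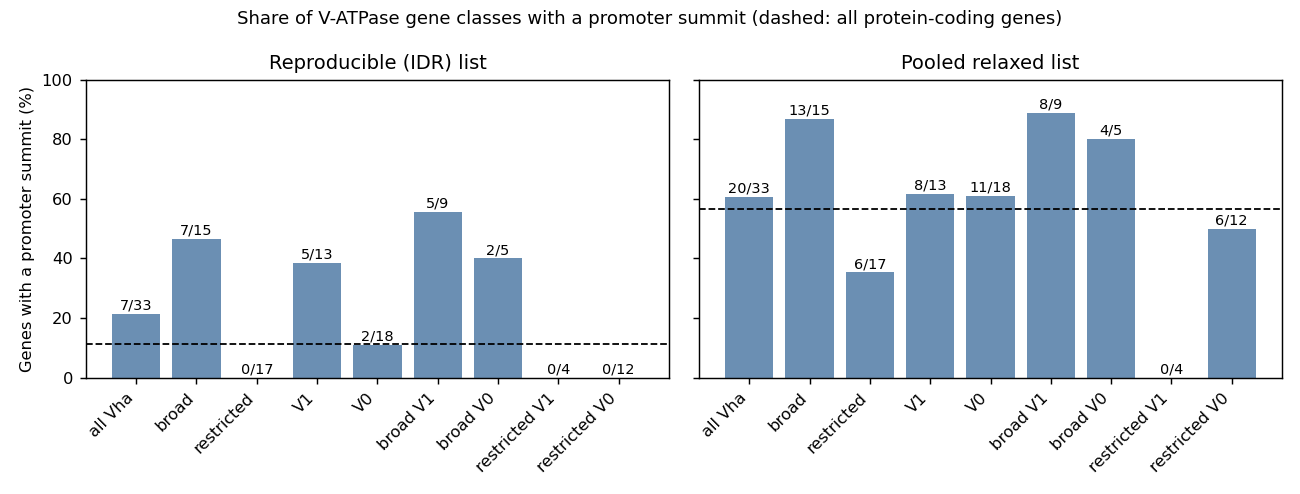
Share of genes in each V-ATPase class (vertical axis, percent) with a promoter summit in the reproducible list (left) and in the pooled relaxed list (right), with the number of genes above each bar and the share of all protein-coding genes as a dashed line. In the reproducible list the bar stands at 7 of 15 for broadly used genes and at 0 of 17 for restricted ones. V1 genes stand at 5 of 13, and V0 genes at 2 of 18, near the dashed line.

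The relaxed lists, which reach to much lower signals, held more of the genes. In the pooled relaxed list, which holds a promoter summit for 56.7% of all genes, 13 of 15 broadly used genes and 6 of 17 restricted genes had one. Replicate 3 listed 12 and 5 of them (background 54.7%), and replicate 4 listed 13 and 6 (background 55.1%). A promoter summit in both replicate lists was found at 10 broadly used and 3 restricted genes (background 45.4%). None of the 15 broadly used genes lacked a promoter summit in all 3 relaxed lists, whereas 9 of 17 restricted genes did (background 34.4%). For V1 and V0 the pooled relaxed counts were 8 of 13 and 11 of 18, both near the background share.

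**Figure D2:**
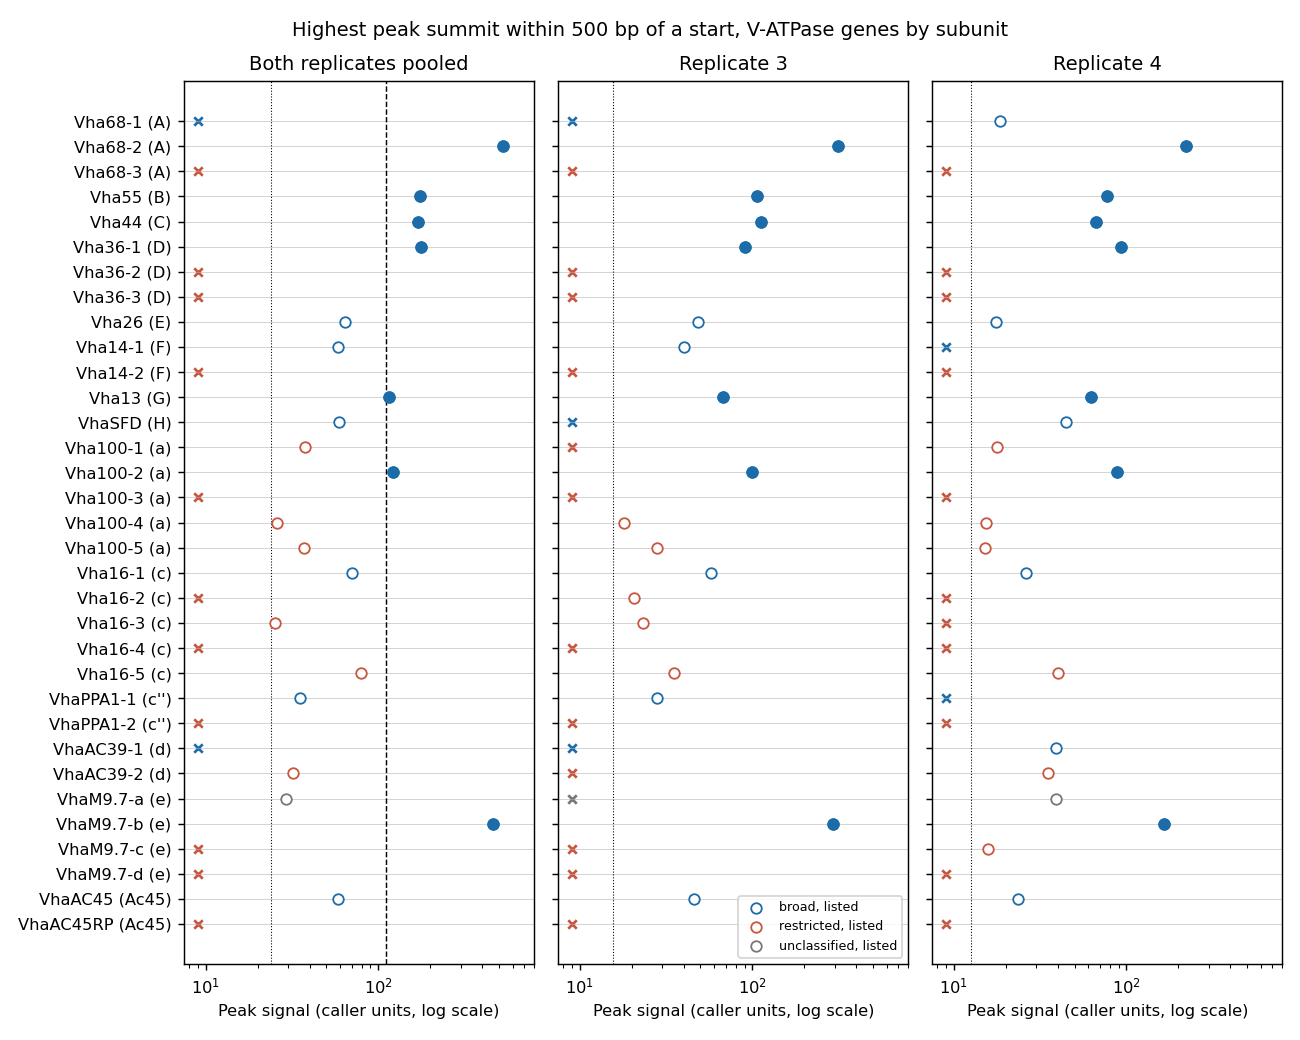
Signal of the highest summit within 500 bp of a start (horizontal axis, caller units, log scale) for each of the 33 genes, listed by subunit, in the pooled list and in each replicate list. Blue marks broadly used, red restricted and grey unclassified genes, filled circles have a reproducible promoter summit, open circles have only a relaxed one, and crosses at the left edge are genes with no promoter summit in that list. The dotted line is the lowest signal of each list and the dashed line in the first panel is the lowest reproducible signal, 111. The 7 filled circles are to the right of every open circle in each panel.

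The catalytic head of V1 is a ring of alternating A and B subunits, with ATP hydrolysed at A. The strongest V-ATPase peak lay at Vha68-2 (FBgn0263598, arm 2L), 1 of 2 A subunit genes classed as broadly used. It had a signal of 524 in the pooled list, rank 189, with 312 in replicate 3 (rank 190) and 221 in replicate 4 (rank 210). The summit was at the same base, chr2L:12975451, in all 3 relaxed lists. It lay in the 5' UTR, 49 bp downstream of the last of the gene's 5 annotated starts and 1129 bp downstream of the first. A weaker reproducible summit lay 57 bp upstream of the first start, with a pooled signal of 119, 79.6 in replicate 3 and 39.6 in replicate 4. This second peak ranked 3833 in replicate 4. Neither summit had the start of another gene within 500 bp.

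The strong Vha68-2 summit carried 3 copies of AGGTTA, read as TAACCT on the gene strand, within 50 bp. This 6-mer was common at reproducible summits in an earlier screen of the same peaks, so its presence here is not separate evidence. The highest reproducible promoter summit had AGGTTA within 50 bp at 15.2% of the 1557 genes that have one, and among the 7 V-ATPase genes it did so at Vha68-2 and VhaM9.7-b. An E-box lay 96 bp upstream of the last start and 144 bp upstream of the strong summit. The sequences are shown on the gene strand of the Release 6 assembly (dm6), with the motif in capitals, because they hold the only AGGTTA copies within 50 bp of the highest pooled promoter summit of a V-ATPase gene.
Vha68-2 upstream pair, chr2L:12975399-12975428: ctgcTAACCTacaactttaTAACCTataat
Vha68-2 downstream copy, chr2L:12975452-12975481: tctacaaaaactTAACCTgtaaatgtagca
VhaM9.7-b, chr3L:21539391-21539420: atcaatgctgtaAGGTTAgaatgcttcttc

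**Figure D3:**
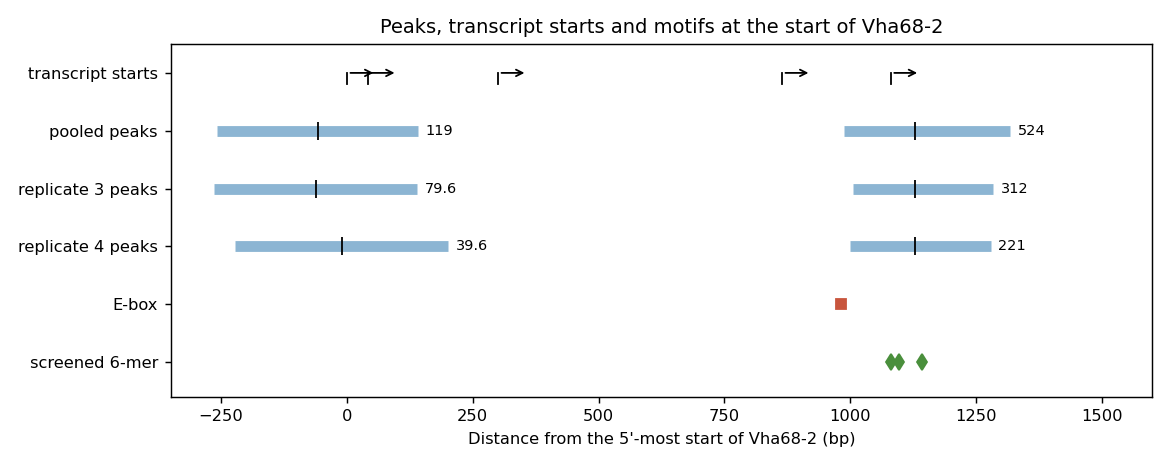
Map of the start of Vha68-2 (horizontal axis, bp from the first annotated start, drawn to scale), with the 5 starts as arrows, peaks as bars with their summits as ticks and their signals beside them, the CACGTG E-box as a square and AGGTTA copies as diamonds. The strong peak sits over the last start with all 3 copies of AGGTTA inside it, and the weaker one over the first 2 starts.

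The other A subunit genes had no reproducible promoter summit. Vha68-3, a restricted paralogue, was in none of the relaxed lists. Vha68-1, also classed as broadly used though with less certainty, had a promoter summit only in replicate 4, with a signal of 18.5 at rank 15900. A reproducible peak with a signal of 164 lay 554 bp upstream of the Vha68-1 start, just outside the window. That summit lay 181 bp downstream of a start of its neighbour mTor, which encodes the TOR kinase. The replicates gave that peak 118 and 47.3.

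Vha55 (FBgn0005671, arm 3R) is the only B subunit gene. Its summit lay 5 bp downstream of a start, in the 5' UTR, with a signal of 174 in the pooled list, 106 in replicate 3 and 76.9 in replicate 4. The ranks were 867, 802 and 994, close to each other across lists. The summit also lay 207 bp upstream of the start of Snx3, a sorting nexin gene.

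The stalks join the head to the membrane: E and G form the peripheral stalks, C and H sit at their base and regulate the joining of V1 to V0, and D and F form the central rotor. Vha36-1 (FBgn0022097, arm 2R), the broadly used D gene, had signals of 176 pooled, 91.0 in replicate 3 and 93.0 in replicate 4. Its summit lay 64 bp upstream of its start and only 8 bp upstream of that of CG8187. Vha44 (FBgn0287825, arm 2R), the C subunit gene, had signals of 169, 112 and 66.7. Its summit lay 81 bp upstream of its start and 42 bp upstream of that of Hmgs, which encodes HMG-CoA synthase. For both genes the neighbour's start was the nearer one.

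Vha13 (FBgn0283536, arm 3R), the G subunit gene, was the weakest of the 7, with 114.9 pooled (rank 1819 of the 1949 kept), 67.9 in replicate 3 and 62.2 in replicate 4. The pooled summit lay 11 bp downstream of its start, and the replicate summits lay 228 and 81 bp downstream. The E, F and H genes stayed under the reproducible threshold. Vha26, the E gene, had 64.5 pooled, 48.5 in replicate 3 and 17.5 in replicate 4, at ranks 5457, 3511 and 17574. A separate reproducible peak of signal 118 lay in its intron, 643 bp downstream of its start. Vha14-1, the broadly used F gene, had 58.7 pooled and 40.0 in replicate 3, and no promoter summit in replicate 4. VhaSFD, the H gene, had 58.8 pooled and 44.6 in replicate 4, and none in replicate 3.

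No restricted V1 paralogue had a promoter summit in any list: Vha68-3, Vha36-2, Vha36-3 and Vha14-2 were all without one. A reproducible peak of signal 369 lay 2110 bp beyond the start of Vha36-2, downstream of the gene and 6 bp upstream of a start of Cam, the calmodulin gene.

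In V0, the a subunit forms the proton channel and carries the signals that send the pump to a given membrane. Of its 5 genes, only Vha100-2 (FBgn0028670, arm 3R) had a reproducible promoter summit, and it had 1 near each of its 2 starts. The replicates differed over which was stronger. The summit 287 bp upstream of the internal start had a pooled signal of 122, with 33.4 in replicate 3 (rank 7176) and 88.1 in replicate 4 (rank 791). The summit 7 bp upstream of the outer start had 112 pooled and 99.3 in replicate 3 (rank 880), and no overlapping peak in replicate 4. Vti1b, a vesicle SNARE gene, has its start 220 bp from the first of these summits, which is nearer to it than Vha100-2 is. The outer summit had no neighbour start.

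The remaining a subunit genes ranged from no summit to a pooled signal of 37.5. Vha100-1, known for its role in neurons, had 37.5 pooled and 17.7 in replicate 4, and was not listed in replicate 3. Its pooled summit lay 10 bp from the start of dgt6. Vha100-5 had 37.1 pooled, 28.1 in replicate 3 and 15.2 in replicate 4. Vha100-4 had 25.7 pooled, near the lowest signal in that list, 24.0. Vha100-3 was in no list.

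The c and c'' subunits form the proton-carrying rotor ring. None of these 7 genes had a reproducible promoter summit, including the broadly used Vha16-1 and VhaPPA1-1. Vha16-1 had 70.1 pooled, 57.2 in replicate 3 and 26.2 in replicate 4, at ranks 4697, 2539 and 8426. The replicate 4 value is from a summit 14 bp downstream of the gene's other start, not from the summit in the other lists. VhaPPA1-1 had 35.0 pooled and 28.0 in replicate 3, and none in replicate 4. The strongest signal among restricted genes belonged to Vha16-5, with 79.9 pooled, 35.4 in replicate 3 and 40.1 in replicate 4. Its pooled rank was 3729, and the summit lay 275 bp upstream of its start but 27 bp upstream of the start of CG12299. Vha16-3 had 25.3 pooled, Vha16-2 only a replicate 3 summit of 20.5, and Vha16-4 and VhaPPA1-2 none.

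The d subunit couples the central stalk to the ring. VhaAC39-1, the broadly used gene, had a promoter summit only in replicate 4, with a signal of 39.2. Its restricted paralogue VhaAC39-2 had 32.2 pooled and 35.1 in replicate 4. The restricted gene alone was in the pooled list, and in replicate 4, the only list with both, the broadly used gene had the higher signal.

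The e subunit is a small membrane protein. VhaM9.7-b (FBgn0028663, arm 3L) had the second strongest V-ATPase signal, with 461 pooled (rank 225), 292 in replicate 3 (rank 206) and 164 in replicate 4 (rank 306). Its summit was 475 bp upstream of its start, close to the limit of the window, and 60 bp downstream of the start of COX8, a cytochrome c oxidase subunit gene. VhaM9.7-a had 29.3 pooled and 39.2 in replicate 4, with its pooled summit 42 bp from the start of CG11586. VhaM9.7-c had only a replicate 4 summit of 15.8, and VhaM9.7-d none. Of the accessory genes, VhaAC45 had 58.8 pooled, 46.2 in replicate 3 and 23.5 in replicate 4, and VhaAC45RP had none.

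**Figure D4:**
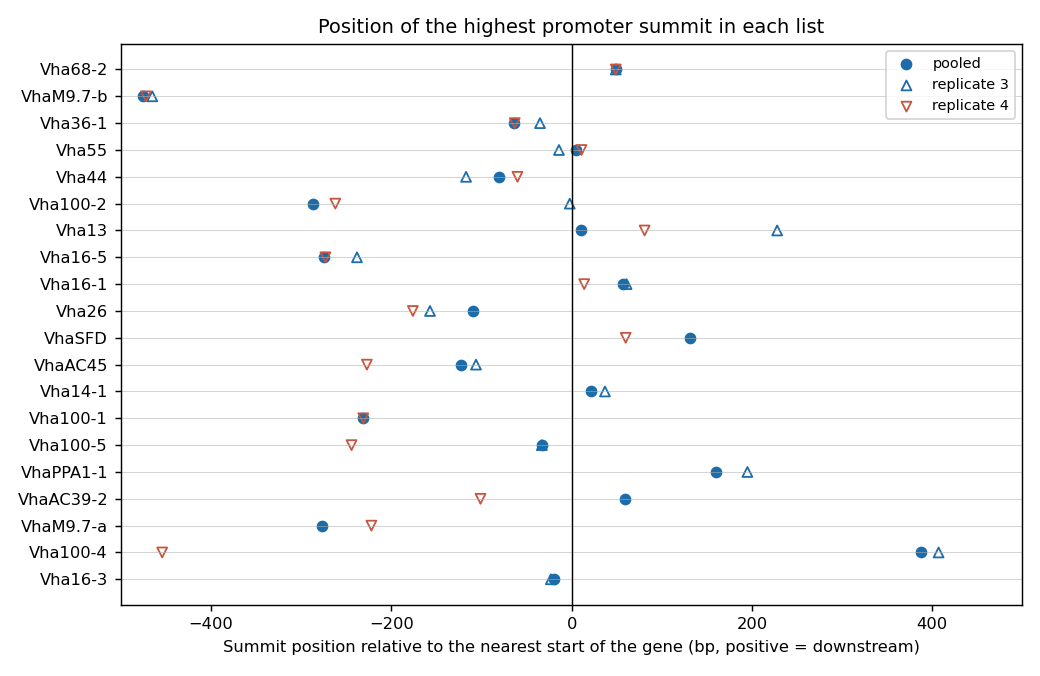
Position of the highest promoter summit relative to the nearest start of the gene (horizontal axis, bp, positive downstream) for the 20 V-ATPase genes with a pooled relaxed promoter summit, ordered from the strongest (Vha68-2) to the weakest (Vha16-3). Filled circles are the pooled list and triangles the replicates. Each distance is to the nearest start, so marks that lie close, as at Vha16-1, can belong to different starts. The marks coincide at Vha68-2, lie near the left limit at VhaM9.7-b, and part by over 100 bp at several genes, among them Vha100-2, where replicate 3 peaked at the outer start, Vha13, Vha100-5, and Vha100-4, where the replicate summits lie on opposite sides of the start.

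The assignment to V-ATPase genes rests in part on shared promoters. Of the 9 reproducible summits at these 7 genes, 5 were also inside the 500 bp window of another protein-coding gene, against 31.1% of the 1289 reproducible promoter summits overall. When each summit was given only to the gene with the nearest start, 4 V-ATPase genes kept a reproducible summit, Vha68-2, Vha55, Vha100-2 and Vha13, beside a background of 8.68%. An unshared reproducible summit was found at 3 genes, Vha68-2, Vha100-2 and Vha13. At Vha100-2 this was the outer summit, with 112 pooled and no overlapping peak in replicate 4. The same summit kept Vha100-2 in the nearest-start count. Which of the 2 genes at a shared promoter a peak belongs to cannot be told apart from peak positions.

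All 7 genes stayed called in each replicate alone: each had a promoter summit among the 1949 strongest peaks of replicate 3 (background 11.0%) and among the 1949 strongest of replicate 4 (background 11.1%), and no other V-ATPase gene did in either. The background for genes called in both was 7.79%. Vha100-2 was called through a different summit in each replicate. In replicate 3 this lay near the outer start (rank 880), and in replicate 4 near the internal start (rank 791). Neither summit was among the 1949 strongest peaks of both replicates. Genes were also ranked by their highest promoter signal among all 13945, with genes lacking a summit tied last. The middle rank over all genes is 6973. The median rank of the broadly used genes was 3368 in the pooled list, 1949 in replicate 3 and 2291 in replicate 4. The median restricted gene had no promoter summit in any of these lists. V1 genes had a median rank of 4140 pooled, 3342 in replicate 3 and 6219 in replicate 4. V0 genes had 7408, 8880 and 6894, so in ranks over all paralogues the sectors lay closer together in replicate 4 than in replicate 3. Within the broadly used genes the pooled medians were 1468 for the 9 V1 genes and 3368 for the 5 V0 genes.

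**Figure D5:**
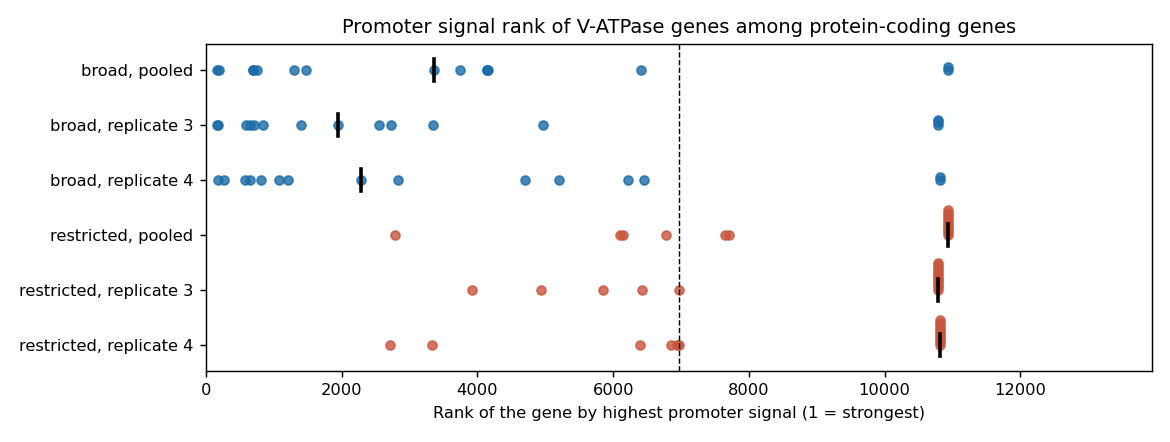
Rank of each broadly used (blue) and restricted (red) V-ATPase gene among all protein-coding genes by highest promoter signal (horizontal axis, 1 is strongest), in the pooled and replicate lists. Black ticks are medians, the dashed line is the middle rank of 6973, and stacked points at the right are genes with no promoter summit, tied last. Medians of broadly used genes lie left of the line in all 3 lists and those of restricted genes at the tied rank.

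E-boxes were searched on both strands within 500 bp of any start. CACGTG, a palindrome, was present at 11 of 33 V-ATPase genes beside 15.4% of all protein-coding genes. By class it was present at 6 of 15 broadly used and 5 of 17 restricted genes. Within 250 bp before to 50 bp after the first start it was present at 3 of 33 genes, Vha44, VhaAC45RP and VhaM9.7-d, beside 4.2%. AGGTTA was present at 8 of 33 genes within 500 bp, near its background of 25.6%, and at 0 of 33 in the shorter window, where 6.88% of all genes have it.

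The longer form with T before and A after CACGTG, which is the inner part of the CLEAR element and overlaps CACGTG by construction, was found within 500 bp of a start at 3 V-ATPase genes, all broadly used: Vha68-2, Vha44 and Vha16-1. It occurred at 107 of all 13945 genes, 0.767%. In the shorter window only Vha44 had it, beside 0.172% of all genes. Genes with several starts have more sequence searched, and these 3 have 5, 2 and 2 starts. Of the 107 genes, 9.35% had a reproducible promoter summit, close to the background of 11.2%. At Vha44 the site was 36 bp from the summit and at Vha16-1 38 bp, both on the downstream side, and at Vha68-2 it was 144 bp upstream.

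Among the 7907 genes with a pooled relaxed promoter summit, 6 had this longer form within 50 bp of the highest one. They were Vha44 and its neighbour Hmgs at a shared summit, Rab5, CG1965 and CG1105 at another shared summit, and Vha16-1. Rab5 encodes an early endosome GTPase. These names were chosen after their values were seen. The pooled signals at the 4 summits were 169, 121, 86.0 and 70.1 in that order, and those at Vha44 and Rab5 were reproducible.

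The E-boxes of Vha68-2, Vha55, Vha100-2 and VhaSFD are shown on the gene strand, with CACGTG in capitals, so that the bases beside it can be compared. The site of Vha55 was 54 bp downstream of its summit. It lay 56 bp upstream of its nearest start, which is not the start beside the summit. Vha100-2 has a pair of sites, 364 and 306 bp downstream of its outer start, and VhaSFD has 1 site 476 bp downstream of its start and 344 bp from its pooled summit.
Vha68-2, chr2L:12975292-12975321: tcaaagctctgtCACGTGaaacgaaagctc
Vha55, chr3R:12627756-12627785: gtcatgtgacggCACGTGacgtcacagcag
Vha100-2 site nearer the start, chr3R:18398848-18398877: agccatccaaagCACGTGctttggcagcag
Vha100-2 site farther from the start, chr3R:18398791-18398820: aatgcactttggCACGTGatgctggctgct
VhaSFD, chr2L:16727336-16727365: cgttggacaagtCACGTGccagcttcttgg
Only the Vha68-2 site of these 5 has T before and A after the E-box.

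Other genes of V-ATPase assembly and of the lysosome were counted from fixed lists, beside the background of 11.2% of all protein-coding genes with a reproducible promoter summit. Of 7 assembly and regulatory genes, among them Rbcn-3A, Rbcn-3B and rogdi of the complex that joins V1 to V0, 0 had a reproducible promoter summit, and the strongest, Rab7, a late endosome GTPase gene named after its value was seen, had 104 pooled. ATP6AP2, the accessory subunit gene outside the Vha naming, had 76.2 pooled, 37.1 in replicate 3 and 38.5 in replicate 4. Mitf had no promoter summit in any list. The Ragulator and Rag genes, which encode the lysosomal platform that works with the V-ATPase in TOR signalling, had 2 of 7 with a reproducible summit, Lamtor3 with 247 and Lamtor4 with 120. Both summits are shared, with fws and Gr63a.

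Lysosomal membrane and hydrolase genes had a reproducible promoter summit at 4 of 18, beside the same background of 11.2%. CtsF, a cathepsin gene, had by far the highest signal of these, 1625 at rank 28, followed by spin, a lysosomal transporter gene, with 199 and Cln7 with 179. The mitochondrial ATP synthase, the rotary ATPase that makes ATP, had reproducible promoter summits at 10 of its 14 listed genes (background 11.2%). Its strongest was ATPsynC, the ring subunit gene, with 2543 at rank 5, against no reproducible promoter summit at the corresponding V-ATPase ring genes. The next were ATPsynE with 1511 and ATPsynbeta with 709. Both of these summits are shared, with Afti and CG11076, whereas that of ATPsynC is not. Some weaker summits of this list are shared as well. Differences between the lists were not tested.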

How the data were processed

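According to the notes deposited with the files, reads were aligned to dm6; the authors called relaxed peaks per replicate and on pooled replicates against 1 control alignment, and thresholded the pooled calls by IDR. The peak caller is not given in the sources used here. The deposited signal per peak (caller units) was used. The deposited −log10 q-value was 3.64 for every reproducible peak, so it ranks none of them.

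Gene models were Ensembl release 115 (FlyBase 6.54), with the RefSeq Release 6 sequence, the same assembly as dm6; 0 peaks ran past a chromosome end. A summit counted for every protein-coding gene with a transcript start within 500 bp, and the highest signal per gene was kept. Assignment was checked on simulated summits, only at genes with a single annotated start and no other start nearby. Shared promoters and genes with several starts were not covered by that check. Python 3.11.15 and pandas 2.3.3 were used. Positions are 1-based.

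Members, classes and lists were chosen with earlier results of these data known. The naming rule took members with a reproducible promoter summit, the other broadly used members, the 5 next strongest, and up to 3 genes per pathway list. Depth is unknown.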

Additional observations from a re-analysis of the deposited data

How the results depend on the processing

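The 7 genes were called again from peaks matched in both relaxed replicate lists by 50% reciprocal overlap (background 9.73% of all genes). The same 7 were called from first starts only (9.86%). In the matched call Vha100-2 could count only through its internal summit, which is nearer to Vti1b and ranked 7176 in replicate 3. Calls without replicate 3 or without replicate 4 (7 and 7) are the calls in each replicate alone given above, so they are not a further check. Vha100-2 was called through a different summit in each case. The 1949 strongest pooled peaks are the reproducible list itself, so calling from them had to return the same 7 genes and is no check. Restricted genes stayed at 0 under every alternative run. Runs that only select from the reproducible promoter summits already counted could not have added one. The 1000 bp window and the calls in a single replicate could have. With Vha68-1 and VhaM9.7-a classed as restricted, the counts were 7 of 14 broadly used and 0 of 19 restricted genes. Neither gene has a reproducible promoter summit, so this could change only the class sizes and is no check of the counts. Nearest-start assignment left 4 genes, all 4 broadly used, 3 in V1 and 1 in V0. The V0 count was also 1 with a 250 bp window (background 9.58% of all genes), among the 974 strongest reproducible peaks (5.74%), and when the peak had to cover a start (8.39%). A 1000 bp window added Vha26 and Vha68-1, for 9 genes, with the background also higher, at 13.4%. The median rank of broadly used genes, 3368, ranged from 1949 to 2291 with 1 replicate left out, and was 1663.5 with a 1000 bp window and 3072 with first starts. That of V1 genes, 4140, ranged from 3341.5 to 6219 with 1 replicate left out, and was 1764.5 with a 1000 bp window. That of V0 genes, 7408, ranged from 6893.5 to 8880 with 1 replicate left out, and was 10307.5 with a 250 bp window and 10388.5 by nearest start. CACGTG was at 11 of 33 genes (background 15.4%), but at 3 in the 250 bp before to 50 bp after the first start (background 4.2%). Of the 20 V-ATPase genes with a pooled promoter summit, 2 had it within 50 bp of the highest one, beside 1.96% of 7907 genes. These windows are shorter. Otherwise the cause was not tested. No paired analysis was possible because the study has 1 group. Relaxed lists end at 30000 lines, so absence from a list also depends on that limit.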
